A study of Caenorhabditis elegans with 2 samples.

Results

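The genes described here encode proteins of the machinery that releases neurotransmitter from synaptic vesicles, and what was measured is where the chromatin protein HMG-11 lay around them. They were 10 of the 19973 protein-coding genes of the Ensembl annotation: unc-13, unc-18, unc-10, unc-64, snb-1, ric-4, snt-1, syd-2, egl-30 and unc-104. They were taken by symbol, and every region whose summit fell from 5 kb upstream of a gene to its end was collected from the deposited lists of regions. This gave 103 of the 30000 regions listed for the pooled reads, 103 of those listed for replicate 1 and 102 of those listed for replicate 2. HMG-11 binding was mapped by ChIP-seq, that is, sequencing of the DNA that is precipitated with a protein by an antibody. The animals were whole hermaphrodite C. elegans of the L3 stage, 52 h after synchronisation by starvation at the L1 stage. There were 2 biological replicates of 1 group, strain TH184, of genotype unc-119(ed3) III; ddIs101. The integrated transgene ddIs101 adds GFP and FLAG at the C-terminus of HMG-11, the antibody was directed against GFP, and the chromatin was sheared by sonication. All samples carried both the transgene and the unc-119 mutation, so neither can be separated from the measurement. The labels do not say which promoter drives the transgene. No input or untagged library was analysed here.

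Neurotransmitter is released when a vesicle docks at the active zone, is made ready for fusion by priming factors, and fuses through the pairing of SNARE proteins on the vesicle and the plasma membrane when calcium binds synaptotagmin. Motor proteins carry vesicle precursors from the cell body to the synapse, and heterotrimeric G proteins set how much is released. In the worm most of these genes were found through uncoordinated movement or resistance to inhibitors of acetylcholinesterase, and they are used broadly in the nervous system. HMG-11 belongs to the HMGA type of chromatin protein, whose AT-hooks contact the minor groove where DNA is rich in A and T. Neurons are a minority of the nuclei of a whole larva, so the regions below average neuronal and other chromatin. A strong signal in few nuclei and a weak signal in many cannot be told apart, and no expression was measured.

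The sequences at the strongest region of 8 of the genes are shown first, because the short motifs described below were picked from them. Each is the summit with the 50 bp to its left and right (101 bases), read from the RefSeq genome of assembly WBcel235 (ce11) and written 5′ to 3′ on the strand of the gene. Capitals mark ATCGAT, which is its own reverse complement, and CTCTC or its reverse complement GAGAG. Both motifs were searched on both strands, were chosen after these sequences had been seen, and cannot overlap each other.
unc-18, chrX:7682567-7682667, plus strand: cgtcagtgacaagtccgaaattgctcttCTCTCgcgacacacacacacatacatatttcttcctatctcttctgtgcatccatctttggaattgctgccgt
unc-10, chrX:7284861-7284961, minus strand: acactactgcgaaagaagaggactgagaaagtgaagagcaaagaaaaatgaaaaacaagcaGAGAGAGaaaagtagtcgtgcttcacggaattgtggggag
unc-64, chrIII:13275904-13276004, plus strand: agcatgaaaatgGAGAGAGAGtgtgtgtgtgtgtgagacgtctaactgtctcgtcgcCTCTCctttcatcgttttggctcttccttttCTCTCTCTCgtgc
snb-1, chrV:6658884-6658984, minus strand: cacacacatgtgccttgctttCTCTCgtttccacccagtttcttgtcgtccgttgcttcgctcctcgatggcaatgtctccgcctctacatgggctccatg
ric-4, chrV:10273923-10274023, minus strand: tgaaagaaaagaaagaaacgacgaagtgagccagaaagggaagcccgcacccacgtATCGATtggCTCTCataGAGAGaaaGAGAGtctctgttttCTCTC
snt-1, chrII:6808517-6808617, plus strand: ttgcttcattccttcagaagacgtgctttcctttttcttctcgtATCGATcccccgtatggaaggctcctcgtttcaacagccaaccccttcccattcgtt
syd-2, chrX:10555636-10555736, minus strand: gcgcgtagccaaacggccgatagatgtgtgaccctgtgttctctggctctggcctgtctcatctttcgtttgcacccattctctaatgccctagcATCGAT
unc-104, chrII:6992976-6993076, plus strand: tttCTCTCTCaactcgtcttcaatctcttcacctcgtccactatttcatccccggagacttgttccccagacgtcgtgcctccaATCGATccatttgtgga
Long runs of A and T are missing from all 8: the median of the longest uninterrupted A/T run was 5 bases over the strongest peaks of the 10 genes, with no run of 10 or more. Runs with CTCTC or GAGAG are frequent, and unc-64 has GAGAG towards the 5′ end of the stretch and CTCTC towards its 3′ end. ATCGAT occurs in syd-2, ric-4, snt-1 and unc-104, that is, in an active zone gene, a SNARE gene, the calcium sensor gene and the motor gene. A match of letters is a description and does not show a binding site.

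HMG-11 regions were present at each of the 10 genes, and the strongest of them mostly lay well upstream of the coding gene rather than at its start. A region was called a peak when it was in the list that the authors cut at an irreproducible discovery rate (IDR), which scores whether ranks repeat between replicates. Peaks made up 13.5% of the pooled regions (4037 of 30000) and held its strongest signals, with a lowest signal of 67.9, a median of 106 and a highest of 529. The signal is the authors' value on an unstated scale and is used only within a list, and rank 1 is the strongest. All 10 genes had a listed region in the window from 5 kb upstream to the gene end, against 52.3% of all protein-coding genes, and all 10 had a peak there, against 28.0%. Long windows hold more regions: of the 2147 genes with a window at least as long as the members' median of 11.5 kb, 49.4% had a peak. Inside a promoter window, reaching from 1000 bp before to 200 bp after each annotated start of the gene, only unc-18, syd-2 and egl-30 had a peak. That is 3 of 10, against 15% of all protein-coding genes (2987 of 19973) and 27.1% of those with long windows. With 1 group no test between conditions was possible, and the 10 genes are not replicates, so these shares are descriptions. The 10 genes were also chosen with earlier results of these data known, so their shares are not independent of the data. Being a peak follows from the pooled signal alone, and the values of both replicates are therefore given beside it.

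**Figure D1:**
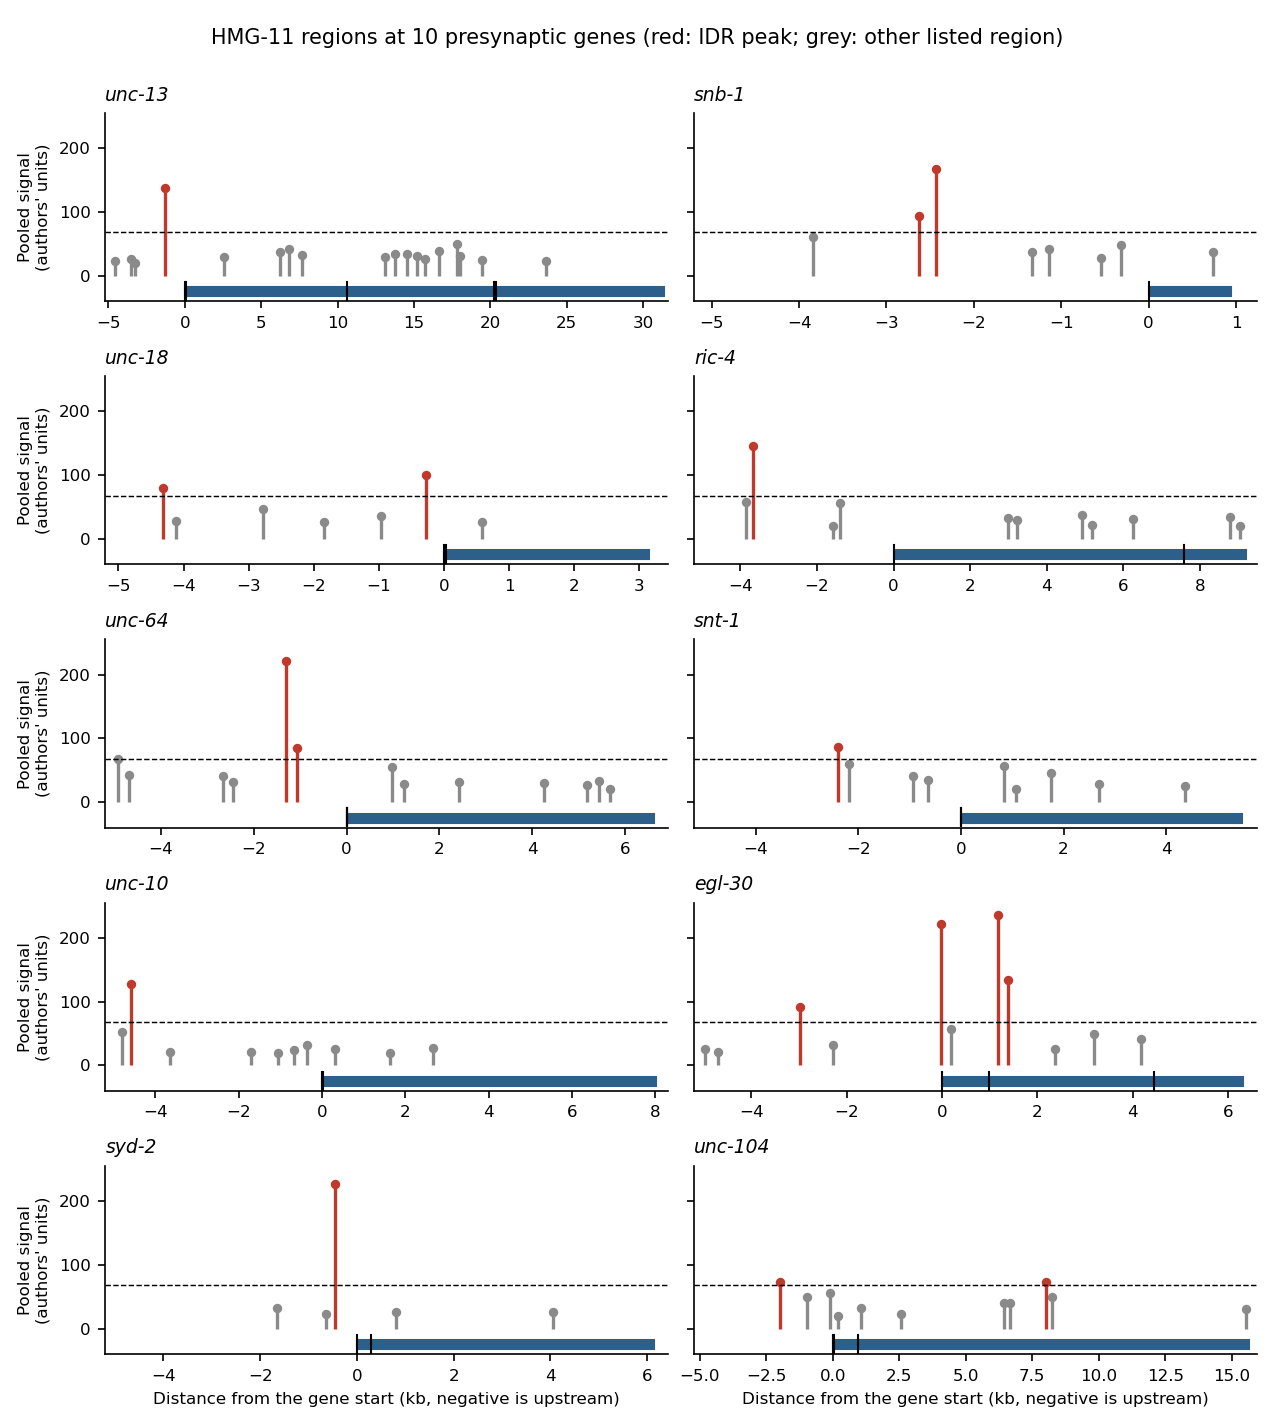
Pooled signal in the authors' units (vertical axis) at every listed summit of the 10 genes, by distance from the gene start in kb (horizontal axis, negative is upstream). Bars at the bottom are the genes, ticks on them the annotated transcript starts, the dashed line is the lowest peak signal of 67.9, red marks peaks and grey the other regions: 14 of 17 peaks stand left of the gene start.

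The priming factors each had a clear peak, at very different distances. unc-13 encodes the Munc13 protein that opens syntaxin and primes vesicles (WBGene00006752, chromosome I, 7422785 to 7454116, plus strand). Its only peak, at 7421232 to 7421687, lay 1325 bp upstream of the gene, with a pooled signal of 137 and rank 1119. The same place had a signal of 50.7 (rank 1764) in replicate 1 and of 87.2 (rank 964) in replicate 2. The gene is 31.3 kb long with 11 annotated transcripts from 5 starts, and its other 17 regions, 14 of them inside the gene, had signals of only 19.3 to 49.4. None of the internal starts, which begin shorter transcripts, had a peak.

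unc-18 encodes the Munc18 protein that binds syntaxin (WBGene00006757, chromosome X, 7682896 to 7686037, plus strand). It was one of the few members with a peak at its own promoter, at 7682389 to 7682844, with the summit 279 bp upstream of the start. The pooled signal was 99.5 (rank 2253), with 40.3 (rank 2714) in replicate 1 and 59.5 (rank 2264) in replicate 2. A weaker peak at 7678346 to 7678801, 4322 bp upstream, had a pooled signal of 79.7 (rank 3237). It ranked 2399 in replicate 1 and 5048 in replicate 2, outside the 4037 strongest of the latter. That summit lay in an intron of the neighbouring gene stn-2, whose start was nearer (2045 bp), so it cannot be given to unc-18 by position. unc-10 encodes RIM, the active zone scaffold that binds vesicles and UNC-13 (WBGene00006750, chromosome X, 7272317 to 7280322, minus strand). Its only peak was the most distant of the strongest peaks, at 7284683 to 7285138, 4589 bp upstream, with a pooled signal of 127 (rank 1373). Signals were 72.7 (rank 667) in replicate 1 and 59.5 (rank 2258) in replicate 2. No other coding start was nearer than that of unc-10, although the start of the noncoding RNA gene K03A1.9 lay 1692 bp away. The promoter of unc-10 held 2 weak regions, the stronger of them 368 bp upstream with a signal of 32.7 (rank 13925).

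The 3 SNARE genes among the members each had a strong peak upstream, outside the promoter window, and none at the start. This placing is not particular to them. The strongest peaks of unc-13, unc-10, snt-1 and unc-104 also lay upstream and outside the promoter window. Over all coding genes with a peak, the strongest was outside the promoter window in 53.6%. unc-64 encodes syntaxin, the SNARE of the plasma membrane (WBGene00006798, chromosome III, 13277258 to 13283887, plus strand). Its stronger peak, at 13275726 to 13276181 and 1304 bp upstream, had a pooled signal of 222 and rank 232. It was among the strongest regions of both replicates, with 99.5 (rank 179) in replicate 1 and 125 (rank 287) in replicate 2. A second peak 1076 bp upstream, at 13275954 to 13276409, overlapped the first and was unevenly supported. Its pooled signal was 85.0 (rank 2952), and the region of nearest summit ranked 1757 in replicate 2 but 12522 in replicate 1. The noncoding RNA gene F56A8.10 started 1006 bp from the stronger summit, nearer than unc-64. The pooled list had no region in the promoter window of unc-64, where replicate 1 alone listed a weak one (signal 12.4, rank 21958). A region 4935 bp upstream, with a signal of 66.9 and rank 4133, was the member region closest below the peak threshold.

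snb-1 encodes synaptobrevin, the SNARE of the vesicle (WBGene00004897, chromosome V, 6655562 to 6656501, minus strand), and is the shortest of the genes. Its stronger peak lay 2433 bp upstream at 6658706 to 6659161, with a pooled signal of 167 (rank 662), 61.0 (rank 1127) in replicate 1 and 106 (rank 525) in replicate 2. The second, at 6658906 to 6659361 and 2633 bp upstream, had a pooled signal of 93.2 (rank 2528) and ranked 4322 in replicate 1 and 3040 in replicate 2. Both were closer to the start of the noncoding RNA gene T10H9.10 (227 bp and 27 bp) than to snb-1, while the nearest coding start was that of snb-1. The promoter itself had a region 321 bp upstream that was not a peak, with a signal of 47.5 and rank 7158. ric-4 encodes the SNAP-25 homologue, which completes the SNARE complex on the plasma membrane (WBGene00004364, chromosome V, 10261131 to 10270314, minus strand). Its only peak, at 10273745 to 10274200, lay 3659 bp upstream with a pooled signal of 145 (rank 976). The replicates were close to each other in rank, with a signal of 65.7 (rank 909) in replicate 1 and of 82.8 (rank 1130) in replicate 2. The start of Y22F5A.11 was nearer to it (1673 bp) than that of ric-4. In the pooled list neither of the 2 annotated starts of ric-4 had a region in its promoter window, and the closest upstream region, 1385 bp from the first start, had a signal of 56.8. Replicate 2 alone listed weak regions 258 bp upstream of the first start (signal 15.9, rank 19258) and 551 bp upstream of the second (13.4, rank 24395).

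The gene of the calcium sensor was the only member whose strongest peak fell outside the 4037 strongest regions of a replicate. snt-1 encodes synaptotagmin, which binds calcium and triggers fusion (WBGene00004921, chromosome II, 6810963 to 6816433, plus strand). Its only peak, at 6808339 to 6808794 and 2396 bp upstream, had a pooled signal of 86.3 (rank 2875). It had 62.4 (rank 2086) in replicate 2 but 27.3 (rank 5560) in replicate 1. None of the 4037 strongest regions of replicate 1 lay in the window of snt-1. The start of the coding gene F31E8.5 was nearer (1305 bp). Promoter regions of snt-1 at 928 and 648 bp upstream had signals of 40.4 and 34.0, below the threshold. syd-2 was the opposite case, with a strong peak at its promoter. It encodes liprin-alpha, which organises the active zone (WBGene00006364, chromosome X, 10549106 to 10555239, minus strand). Its only peak, at 10555458 to 10555913, had its summit 447 bp upstream, a pooled signal of 227 and rank 209. Replicate 2 had 151 (rank 135) and replicate 1 had 59.7 (rank 1209) at the region of nearest summit. The strongest replicate 1 region that overlapped it had 78.9 (rank 504). The summit lay 58 bp from the start of the noncoding RNA gene F59F5.9, inside its exon, so the promoter of syd-2 cannot be told apart from that of this noncoding gene.

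egl-30 had the most peaks of the 10 genes, and both of its strongest lay at its own starts. It encodes the alpha subunit of Gq, which raises acetylcholine release through phospholipase C and UNC-13 (WBGene00001196, chromosome I, 1835661 to 1841965, plus strand). It had 4 peaks, where 5 of the members had 1 and the other 4 had 2. Of all protein-coding genes 0.451% had 4 or more peaks in the window, and of those with long windows 2.61%. Related genes had as many: eat-16 and gpb-1, also of G protein signalling, had 4 each, as had the recycling gene unc-41 (gpb-1 and unc-41 were named after their values were seen). The strongest, at 1836650 to 1836876, had a pooled signal of 235 and rank 172, ranking 142 in replicate 1 and 185 in replicate 2, where its signal was 141. It lay inside the gene, 172 bp downstream of the second annotated start, which is 990 bp into the gene. The next, at 1835412 to 1835867, was 21 bp upstream of the first start, in a window shared with C53H9.4. Its signal was 221 (rank 234) in the pool, 77.2 (rank 546) in replicate 1 and 146 (rank 156) in replicate 2. Each of the first 2 annotated starts thus had a peak among the 234 strongest regions, whereas the third, 4440 bp into the gene, had a promoter region of signal 41.7 (rank 9052).

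The remaining peaks of egl-30 were weaker. That at 1836974 to 1837144, 399 bp downstream of the second start, had a pooled signal of 134 (rank 1190) and ranked 1148 in replicate 2, but its nearest region in replicate 1 ranked 22254 with a signal of 12.3. A replicate 1 region with a summit almost as near, at 1836714 to 1837177, ranked 1731 with a signal of 51.2, so this low rank rests on which of the overlapping regions is matched. That at 1832460 to 1832915, 2973 bp upstream, had a pooled signal of 92.2 (rank 2585), 37.5 (rank 3066) in replicate 1 and 52.6 (rank 2771) in replicate 2, and lay 209 bp from the start of C53H9.2. unc-104, which encodes the kinesin that carries synaptic vesicle precursors along axons, had the weakest peaks (WBGene00006831, chromosome II, 6994987 to 7010625, plus strand). The one at 6992798 to 6993253 lay 1961 bp upstream and had a pooled signal of 73.4 (rank 3620), with 35.8 (rank 3354) in replicate 1 and 45.3 (rank 3482) in replicate 2. It lay 813 bp from the snoRNA gene C15F1.15. The other, at 7002780 to 7003235, was in an intron 8021 bp into the gene, with a pooled signal of 72.7 (rank 3668), 23.2 (rank 7548) in replicate 1 and 49.6 (rank 3029) in replicate 2. That summit was 56 bp from the start of a tRNA gene (WBGene00022967). Both stood just above the lowest peak signal of 67.9. The start of unc-104 itself had a region 93 bp upstream with a signal of 55.8 (rank 5438), which was not a peak.

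Across the 10 genes the strongest peaks ranked from 172 (egl-30) to 3620 (unc-104), with a median rank of 1047.5, and 7 of the 10 were in the stronger 50% of all peaks (2018). From strong to weak the order was egl-30, syd-2, unc-64, snb-1, ric-4, unc-13, unc-10, unc-18, snt-1 and unc-104. Most neighbours in this order were not separated by the replicates: of the 9 pairs of neighbours, 7 stood in opposite order in the replicates, egl-30 being ahead of syd-2 in replicate 1 and behind it in replicate 2. The other 2 pairs, unc-64 before snb-1 and unc-10 before unc-18, kept their order. In replicate 2, however, unc-10 (rank 2258) and unc-18 (rank 2264) were nearly level. egl-30 and unc-64 were ahead of every gene from snb-1 onwards, and unc-104 behind every gene other than snt-1, in both replicates. The strongest peak of 7 genes lay outside the promoter window, against 53.6% of the 5586 coding genes with a peak. In all 7 it was upstream of the gene, by 1304 bp (unc-64) to 4589 bp (unc-10). Over all coding genes with a peak, the strongest was more than 1000 bp upstream of the gene start in 47.2%, within 1000 bp upstream in 40.6% and in the gene in 12.2%. Of the 17 peaks 14 were upstream of the gene start, and for 13 the nearest protein-coding start was the member's own. For the other 4, at unc-18, ric-4, snt-1 and egl-30, it was that of a neighbour. Counting every gene class, including noncoding RNAs, the nearest start was the member's own for 5 peaks of 3 genes, unc-13, unc-18 and egl-30.

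Regions inside the genes were numerous but weak. Of the 48 listed regions in a gene and outside its promoter windows 2 were peaks (4.17%), against 5.17% over all coding genes. Of the 36 listed regions further upstream, to 5 kb, 11 were peaks (30.6%), against 17.3%. Of the 19 in the genes' own promoter windows 4 were peaks (21.1%), against 27.8%. By this share of regions the members stood above the background further upstream and below it at promoters, on small counts. By genes, a promoter peak at 3 of 10 members was close to the 27.1% of coding genes with long windows, and 15% of all coding genes had one. On counts this small neither share sets the members apart at promoters. The windows of the 10 genes, 142.8 kb in all, held 721 listed regions and 119 peaks per Mb, compared with 299 and 40.3 per Mb over the 6 nuclear chromosomes.

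Both replicates listed a region at all 17 peaks, but their order differed. Among the 4037 strongest regions were 12 of the peaks in replicate 1, 16 in replicate 2 and 11 in both. The strongest peak of 9 genes was among the 4037 strongest of both replicates, and snt-1 was the exception. The remaining peaks outside the strongest of replicate 1 were the weaker peaks of unc-64, snb-1, egl-30 and unc-104. Of the 86 member regions that were not peaks, 68 were listed in both replicates. The largest gaps in rank belonged to the peaks beside a stronger summit at unc-64 and egl-30, where regions that overlap each other were matched by nearest summit. When the strongest overlapping region was taken, a choice made after seeing the data, 14 peaks in place of 11 were among the strongest of both.

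**Figure D2:**
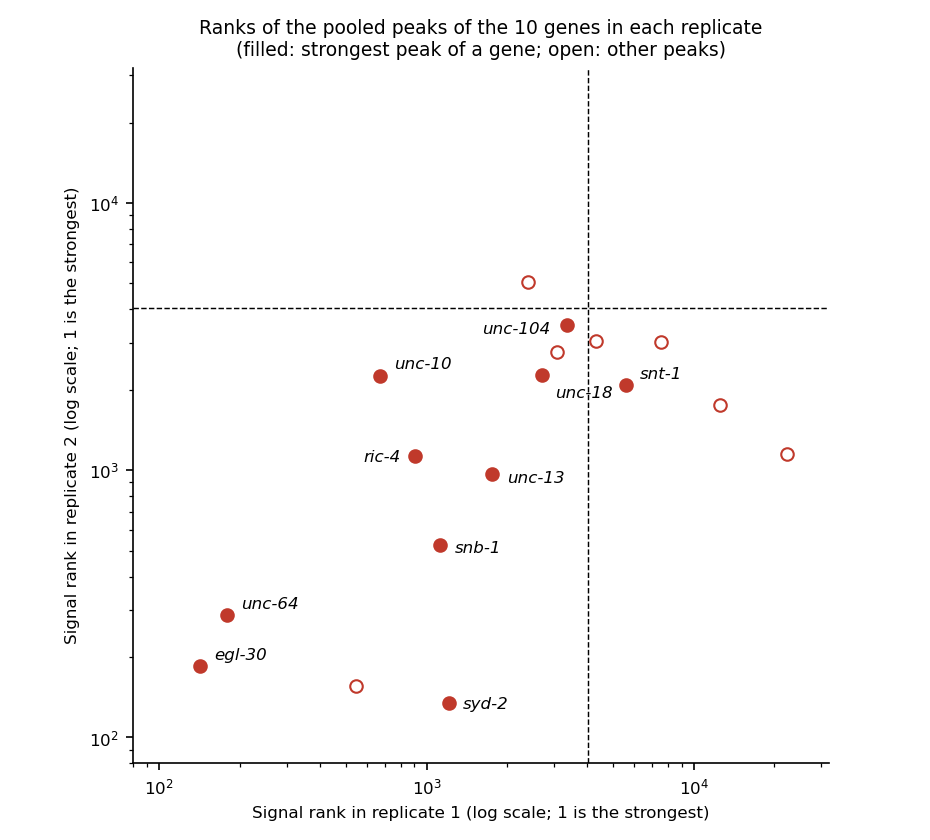
Signal rank of the 17 pooled peaks in replicate 1 (horizontal axis) and replicate 2 (vertical axis), both on log scales with 1 the strongest. Filled points are the strongest peak of each gene, open points the others, and dashed lines stand at rank 4037: 11 points lie below both lines, and egl-30 and unc-64 are near the lower left corner.

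The DNA under the peaks of these genes was poorer in A and T than that of their other regions. The median A+T content of the 17 peaks was 50.5% (31.7 to 57.4%), and that of the other 86 member regions 64.4% (44.6 to 75.2%). The ranges overlapped between 44.6 and 57.4%. The same difference is present in the whole list, with a median of 52.5% for all peaks (quartiles 47.5 and 58.4%) and 63.4% for the other regions (57.4 and 70.3%), so it is not particular to these genes. The lowest values belonged to the peaks of egl-30, with 31.7% at the summit 21 bp upstream of the first start. The highest belonged to unc-10, with 57.4%. A run of 10 or more A/T bases was found in 1 of 17 member peaks (5.88%), the intronic peak of unc-104, whose longest run was 13 bases. It was found in 33 of the 86 other member regions (38.4%), in 17% of all peaks and in 41.3% of all other regions. AATT was present in 6 of 17 member peaks (35.3%) and 58 of 86 other member regions (67.4%), against 44.2 and 73.5% in the whole list.

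**Figure D3:**
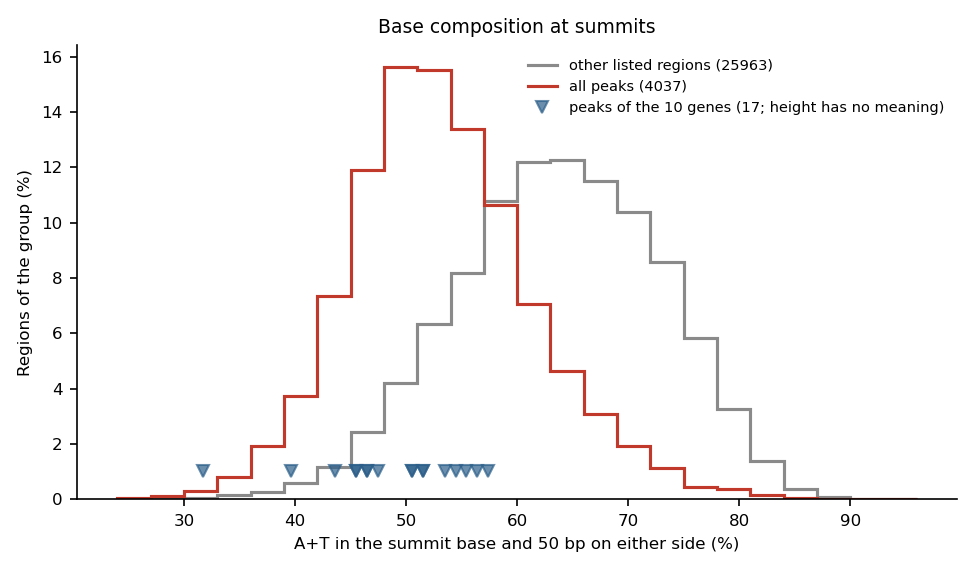
Share of regions in percent (vertical axis) by A+T content of the 101 bases around the summit, in percent (horizontal axis), for all 4037 peaks (red) and the 25963 other listed regions (grey). Triangles mark the 17 member peaks, whose height has no meaning: they lie from 31.7 to 57.4%.

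The motifs shown in capitals above were set against all regions of the same length. CTCTC or GAGAG was present in 10 of 17 member peaks (58.8%) and 18 of the 86 other member regions (20.9%), against 47.7% of all peaks and 17.7% of all other regions. The member values were near those of the whole list. ATCGAT was present in 4 of 17 member peaks (23.5%), each the strongest of its gene, and in 1 of 86 other member regions (1.16%). It was present in 5.77% of all peaks (233 of 4037) and in 3.73% of all other regions. Since this motif was picked from the member sequences themselves, its excess among them was not tested.

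Genes of related function differed widely in how many had a peak. Over 5 further lists of presynaptic genes, 47 of 61 genes had a peak from 5 kb upstream to the gene end (77.0%) and 26 had one in the promoter window (42.6%). Their median window of 11441 bp was close to that of the 10 genes (11467 bp). Among 15 postsynaptic receptor and receptor clustering genes 6 had a peak (40%), and among 13 genes of body wall muscle 3 had one (23.1%), with median windows of 10800 and 12527 bp. The muscle share was below the 28.0% of all coding genes, whose windows are shorter (median 7027 bp). These lists were chosen by symbol from known functions, but with earlier results of these data known. Their shares are therefore not independent of the data and are described by counts alone.

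**Figure D4:**
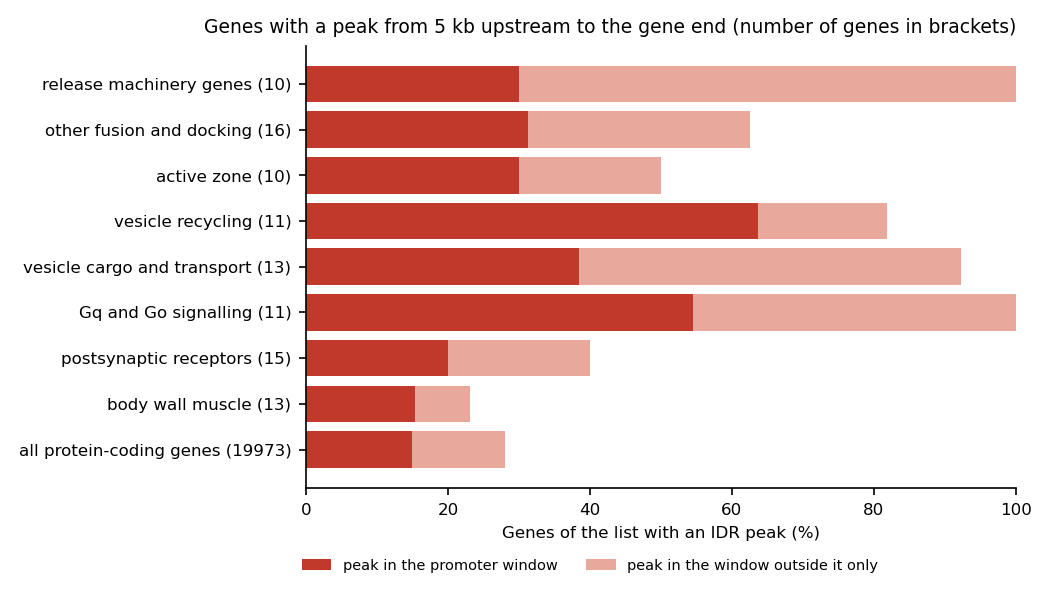
Share of the genes of each list with a peak from 5 kb upstream to the gene end, in percent (horizontal axis), for the 10 genes, 5 presynaptic lists, postsynaptic receptors, body wall muscle and all protein-coding genes (numbers of genes in brackets). The dark part is genes with a peak in the promoter window and the pale part genes with a peak outside it only: the bars of the 10 genes and of Gq and Go signalling reach 100%.

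In the fusion and docking list 10 of 16 genes had a peak, 5 of them at the promoter. Among the promoter peaks that of tom-1, which encodes tomosyn, an inhibitor of SNARE assembly, was the strongest, 403 bp upstream (signal 167, rank 655). The synaptotagmin genes snt-2 (signal 138, 58 bp upstream, in a window shared with the ribosomal protein gene rps-29) and snt-4 (signal 137, 207 bp upstream) had promoter peaks, unlike snt-1. aex-4 and the complexin gene cpx-2 had no listed region in the pooled list, on which all counts of genes rest. In the active zone list 5 of 10 genes had a peak (50%), near the 49.4% of coding genes with long windows. The median window of this list was 21686 bp, longer than that of the 10 genes (11467 bp). Those at promoters were all weaker than that of syd-2: elks-1, an active zone scaffold (signal 92.6), unc-2, the alpha subunit of the presynaptic calcium channel (85.7, at an internal start), and cla-1, encoding Clarinet (75.4). The promoter peak of cla-1 lay in a window shared with F45E4.15. rpm-1 and unc-36 had no listed region.

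Vesicle recycling had the largest share of promoter peaks among the lists, 7 of 11 genes, and 9 of 11 had a peak. Among promoter peaks that of the AP2 adaptor gene dpy-23 was the strongest, 271 bp upstream (signal 277, rank 70), followed by those of apa-2 of the same complex (185, rank 468) and of unc-26, encoding synaptojanin (174, rank 578). ehs-1 had no listed region. Vesicle cargo and transport had a peak at 12 of 13 genes and a promoter peak at 5. The strongest promoter peaks were those of unc-16 (signal 190, in a window shared with ZK1098.13), unc-76 (188) and unc-14 (159). These genes are all linked to kinesin transport, and their peaks were all above those of unc-104. The glutamate transporter gene eat-4 had no listed region. All 11 genes of Gq and Go signalling had a peak, as egl-30 did, and 6 had one at the promoter. eat-16, which encodes an RGS protein that acts on EGL-30, had the strongest, 389 bp upstream in a window shared with C16C2.7 (signal 263, rank 91). gpc-2, a G protein gamma subunit gene, had a promoter peak of signal 135, in a window shared with hrpf-1 and F08B6.6.

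Postsynaptic promoter peaks were weak and were present at 3 of 15 genes (20%). This share lay between the 15% of all coding genes and the 27.1% of those with long windows. The peaks were at the acetylcholine receptor genes acr-12 (signal 99.2), unc-38 (78.1) and acr-2 (68.9, next to the lowest peak signal). That of unc-38 lay in a window shared with icmt-1, and that of acr-2 in one shared with F38B6.10, F38B6.17 and F38B6.19. acr-16 and the glutamate receptor gene glr-1 had no listed region. In body wall muscle the promoter peaks were those of unc-60, encoding cofilin (signal 207), and lev-11, encoding tropomyosin (75.7, at an internal start). The peak of unc-60 lay in a window shared with F53E2.2, whose start was equally near. The troponin gene mup-2 and the myosin gene myo-3 had no listed region. The third muscle gene with a peak, unc-89, had it 3039 bp upstream, where the nearest coding start was that of a neighbouring gene. unc-89 is named after its values were seen.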

How the data were processed

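HMG-11 ChIP-seq regions were analysed for 2 biological replicates of 1 group. Per the labels and the deposited file listing, the authors made 1 list of candidate regions per replicate, another for their pooled reads, all made against a control, and a list of IDR peaks. The aligner and the peak caller were not given in the sources used here. Signals are used as the authors deposited them. The −log10 q-value that the authors deposited is capped within each list, so regions were ranked by signal. Summits came from the deposited offset, a position in bases. Read depth is unknown, so no interval for counting error is given. The ce10 lists were not used.

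Genes and transcript starts were taken from Ensembl release 115 (WBcel235) and sequences from the RefSeq genome of the same assembly, which is ce11. Coordinates count from 1. A pooled region was matched to the replicate region that overlapped it by at least 1 bp and had the nearest summit. The 4037 strongest regions of each replicate were compared with the 4037 peaks. Python 3.11.15, pandas 2.3.3 and numpy 2.4.6 were used, and the window, distance and nearest-start functions were checked on planted data. All 10 genes are named. In each of the other 7 lists the rule names the 3 genes with the strongest promoter peak and up to 2, in order of symbol, with no listed region. 1 gene that this rule names is not reported here. Genes nearest to or overlapping a window are named as neighbours. The members and lists were chosen with earlier results of these data known. Alternatives were other windows, peak thresholds, sequence lengths and matching rules, and each replicate alone. No statistical test was made, because the design has 1 group.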

Additional observations from a re-analysis of the deposited data

How the results depend on the processing

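Of 41 alternatives for the main counts and the A+T content, 30 stayed within 1.5 times the value or within its spread. With 2 kb upstream, 6 of the 10 genes had a peak, with unc-10, snb-1, ric-4 and snt-1 lost, and the peaks fell to 10 and those strong in both replicates to 7. With the stronger 50% of peaks, 9 peaks remained of the 17. Of these, 7 were also among the 2018 strongest regions of both replicates, a tighter cut than the 4037 used elsewhere. When only peaks nearest to the member's start among genes of any class were counted, an alternative chosen after seeing the data, 3 genes and 5 peaks were left. A promoter window of 2000 bp upstream gave 6 genes with a promoter peak. The median A+T content was 45.1% with 25 bp on either side and 55.5% over the whole region. Each replicate list was also used in place of the pooled list, with its 4037 strongest regions taken as peaks. This gave 9 to 10 genes with a peak, the 9 without replicate 2, and 16 to 17 peaks. It also gave 3 genes with a promoter peak, 10 genes with a listed region and 47.5 to 51.5% A+T. Of these peaks 12 to 13 were strong in both replicates, a count that still uses the replicate left out. No paired analysis was possible because there is 1 group. Depth is unknown, weaker regions than those listed are unknown, summits stood at the region centre in 99.5% of regions, and no control library was analysed here.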

Other observations

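Several genes outside the 10 showed the same placing of a strong peak upstream and outside the promoter window. They were chosen after their values were seen. Over all coding genes with a peak, the strongest lay outside the promoter window, upstream or in the gene, in 53.6%. In the 5 presynaptic lists this held for 5 of 10 genes with a peak (fusion and docking) and 3 of 5 (active zone). It held for 3 of 9 in recycling, 8 of 12 in cargo and transport and 7 of 11 in Gq and Go signalling. Among Gq and Go signalling genes, gpb-1, encoding a G protein beta subunit, had a peak 1257 bp upstream with a pooled signal of 246 (rank 139), and egl-10, encoding an RGS protein that acts on Go, had one 2551 bp upstream with 228 (rank 201). Among transport genes, unc-116, encoding the kinesin heavy chain, had one 1511 bp upstream with 224 (rank 216), and unc-51, encoding a kinase needed for axon growth, one 1478 bp upstream with 215 (rank 261). In the fusion and docking list, aex-6, a Rab gene, had one 2252 bp upstream with 181 (rank 505). In the recycling list, the dynamin gene dyn-1 had one 2009 bp upstream with 178 (rank 538) and a weaker peak at its promoter. Whether such peaks act on these genes was not measured.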
